A study of Danio rerio with 15 samples.

Results

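The genes described are those of the cytosolic ribosomal proteins, taken as the rows of the zebrafish gene table whose symbol begins with rpl or rps and a digit, or with rplp and a digit, together with rpsa, and without the rps6k kinases. The rule found 84 of 32520 rows, and all 84 were among the 21477 genes with enough counts to be tested. Of these, 48 are named for the large subunit and 35 for the small subunit, and 1 more, rps19bp1, is named as a protein that binds Rps19 and is not itself part of the ribosome. The symbol rpl37 belongs to 2 rows, told apart here by chromosome (21 and 2). The choice used names and not measured values.

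The libraries were made from whole bodies of AB wild-type zebrafish at 120 hours post-fertilization. Besides the control group there were 4 dose groups of perfluorooctanesulfonic acid (PFOS), a fluorinated surfactant that persists in the environment, at 0.1, 1, 5 and 10 µM. Each group had 3 libraries, and no transgene or mutation is named for any. The series title places the work in developmental neurotoxicity. Nothing in the labels ties the libraries of 1 group to separate clutches or exposures, so the p-values below rest on a spread between libraries that may be technical in part.

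A ribosome joins a small subunit, which reads the mRNA, to a large subunit, which makes the peptide bond, and each holds ribosomal RNA and 1 copy of most of its proteins. Vertebrate mRNAs for these proteins carry a terminal oligopyrimidine (TOP) motif at their start, through which the mTOR kinase sets how much of them is translated. Surplus copies of Rpl5 and Rpl11 bind Mdm2 and so stabilise p53 when ribosome assembly fails. In larvae these mRNAs are abundant in most tissues, and several serve as reference genes in quantitative PCR.

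Library totals were 11956657 to 19978125 estimated counts, and genes of the mitochondrial genome took 3.85% to 5.38% of them. Markers of muscle, neurons, liver, erythroid cells, lens, epidermis and dividing cells were present in every group, as a whole-body label requires. At 10 µM, 3 of 3 epidermal keratin markers passed lower, with a summed level of 4492 to 6033 CPM (counts scaled to a common library size) against 7934 to 9640 in controls. Of 3 muscle markers 2 passed lower, with sums of 9174 to 10389 against 13359 to 13884 CPM. Of 3 neuronal markers 1 passed lower (sums of 421 to 458 against 510 to 555 CPM), as did 1 of 6 of dividing cells (358 to 366 against 391 to 430 CPM). Of 3 liver markers 1 passed higher (3655 to 3823 against 3234 to 3622 CPM), and 0 of 3 erythroid and 0 of 3 lens markers passed. Their part in the ribosomal protein values was not tested. In libraries from whole bodies, fewer cells of a type and less RNA per cell cannot be told apart.

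Ribosomal protein genes together took 5.77% to 6.93% of each library. Their share of estimated counts was 6.41%, 5.97% and 6.08% in controls 1, 2 and 3. It was 6.61%, 5.89% and 6.78% in the 10 µM libraries, which carry the numbers 2, 3 and 4 in the table. Library 3 of 10 µM lay below every control, and the other two lay above. At 5 µM the share was 6.93%, 6.16% and 6.49%. The 1 µM libraries had 5.89%, 6.39% and 6.33%, and those of 0.1 µM had 6.28%, 5.77% and 5.78%. Each exposed group overlapped the controls. The mean of 6.43% ± 0.470 at 10 µM was 0.276 percentage points above the control mean of 6.15% ± 0.227 (SD, n = 3 per group, exact two-sided permutation p = 0.4, adjusted over the 4 doses 0.667). At 5 µM the difference was 0.378 points (exact p = 0.2), and with 3 against 3 libraries no exact p can be below 0.1. Set against the control of the same number, the share at 0.1 µM was lower in all 3 pairs, by a mean of -0.206 points, and at 1 µM lower in 1 and higher in 2 (exact sign-flip p = 0.25 and 1.0, added after the data were seen, with 0.25 the smallest that 3 pairs allow). At 5 µM it was higher in all 3 pairs, by a mean of 0.378 points (exact sign-flip p = 0.25). At that dose the data do not bear out the pairing for every number, as described with the processing.

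**Figure D1:**
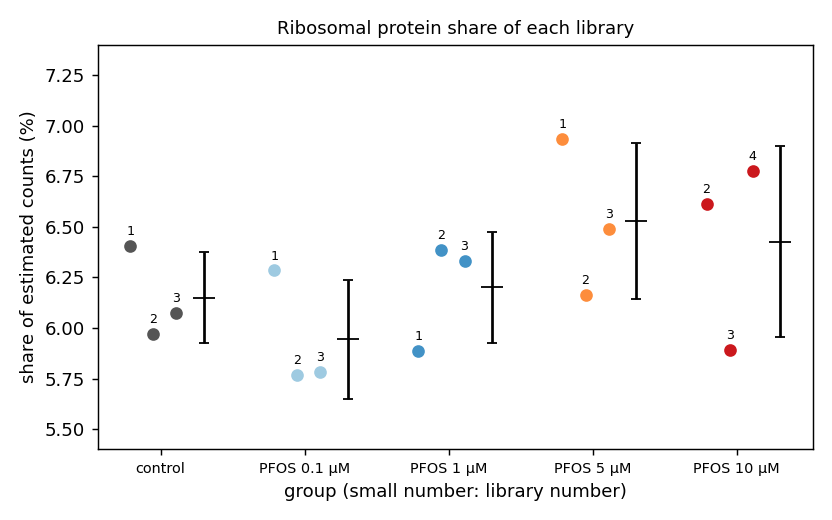
Share of each library's estimated counts (y axis, %, starting at 5.4) in the 84 ribosomal protein rows, by group. Each point is a library with its number, and the bar is the mean ± SD of 3 libraries. Library 1 of 5 µM is highest at 6.93%, and library 3 of 10 µM at 5.89% lies apart from its group's 6.61% and 6.78%.

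The balance of the subunits hardly moved. Summed large-subunit counts were 1.46 ± 0.00723 times the small-subunit counts in controls and 1.47 ± 0.0151 at 10 µM (SD, n = 3 per group, exact p = 0.3). At 0.1 µM the ratio was 1.44 ± 0.00588, with every library below every control, and the exact p of 0.1 is the smallest this design allows (adjusted over the 4 doses 0.4).

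In controls the 84 genes spanned a wide range. Mean levels ran from 6.31 to 2633 CPM (median 592), and per kilobase from 7.22 to 3556 (median 1604). Per kilobase, rps2 stood at the top, followed by rpl39 at 3126 and rps9 at 3036. The lowest were rps8b at 7.22, rps19bp1 at 8.28 and rpl37 on chromosome 2 at 9.13. Levels per kilobase divide by the length behind the authors' RPKM values, which was 83.1 bases for rpl39. That length need not be the full length of the mRNA, and the order depends on it. Controls were close to each other, with a median coefficient of variation of 5.12% (0.463% to 19.7%).

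The genes moved together from library to library. The median SD of a member on the log2 scale was 0.07 in controls and 0.08, 0.09, 0.15 and 0.15 at the 4 doses from lowest to highest. For all tested genes the same 5 medians were 0.15, 0.16, 0.16, 0.20 and 0.14. A first principal axis held 63.8% of the members' variance over the 15 libraries, and the median Pearson correlation over 3486 pairs of members was 0.61, as a description, since all share libraries and scaling. Neither value was worked out for other genes, so they do not show that the family differs from others in this. The genes least like the mean of the rest were rps8b (r = -0.29), rps19bp1 (r = -0.13) and rpl37 on chromosome 2 (r = 0.19), which are the genes of lowest level per kilobase.

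The comparison of 10 µM with control asks which ribosomal protein genes differ at the highest dose. In edgeR's quasi-likelihood test, 11 of 84 rose (13.1%) and 0 fell at an adjusted p below 0.05, where 7.78% of all tested genes rose and 6.65% fell. At an unadjusted p below 0.05 there were 22 higher and 2 lower, which is 28.6% of members against 29.5% of all tested genes (15.4% higher and 14.1% lower). DESeq2 called 13 members higher and 0 lower, where it called 7.72% of all tested genes higher and 6.52% lower. The median log2 fold change was 0.04 over the members and -0.01 over all tested genes, with 51 members above 0 and 33 below. It was 0.09 with scaling to library totals and 0.03 with scaling to the summed ribosomal protein counts. But it turned to -0.12 once each library's trend over length, as defined below, was removed. Groups did not overlap for 14 members that were higher (18.6% of all tested genes) and 6 that were lower (18.3%).

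Among core large-subunit genes the largest rise was that of rpl29 (ENSDARG00000077717, chromosome 11, 1396170 to 1400634 as deposited, on a genome build that no source used here names). It had 112, 107 and 111 CPM in controls 1 to 3 and 223, 128 and 243 CPM in 10 µM libraries 2, 3 and 4. All 3 exposed libraries lay above the controls, library 3 by much less than libraries 2 and 4. The log2 fold change was 0.84 (SE 0.161, adjusted p = 0.00412).

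The gene rpl38, whose loss in mice alters the pattern of the vertebrae, had 129, 128 and 139 CPM in controls and 263, 126 and 275 CPM at 10 µM. Library 3 was below every control while libraries 2 and 4 were far above, so the groups overlapped (log2 fold change 0.75, SE 0.194, adjusted p = 0.0197). The gene rpl39, which encodes a small protein lining the peptide exit tunnel, had the same shape. It had 262, 245 and 272 CPM in controls and 423, 243 and 459 CPM at 10 µM (0.53, SE 0.169, adjusted p = 0.0472).

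The gene rpl37 on chromosome 21 went from 306, 286 and 288 CPM to 431, 327 and 432 CPM (log2 fold change 0.43, adjusted p = 0.0172). For rpl22, which encodes a large-subunit protein that cells can do without for general translation, the values were 261, 250 and 261 CPM in controls and 316, 309 and 351 CPM at 10 µM. Here all 3 exposed libraries were clear of the controls and close to each other (0.34, SE 0.0827, adjusted p = 0.0146).

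In the small subunit, rps28, whose protein lies near the path by which mRNA leaves the ribosome, had 214, 196 and 210 CPM in controls and 349, 231 and 384 CPM at 10 µM (log2 fold change 0.64, SE 0.138, adjusted p = 0.0079). The gene rps29, which encodes a small zinc-binding protein of the head of the subunit, had 256, 246 and 237 CPM and then 351, 280 and 378 CPM (0.45, SE 0.104, adjusted p = 0.0111). In both, library 3 was the lowest exposed library but still above every control.

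The other risers were like-named paralogues. The gene rpl22l1, the paralogue of rpl22, had 58.0, 57.3 and 57.8 CPM in controls and 93.6, 67.8 and 102 CPM at 10 µM (log2 fold change 0.61, SE 0.127, adjusted p = 0.00678). For rpl7l1, whose human counterpart takes part in assembly of the large subunit, the values were 24.3, 27.3 and 24.5 CPM and then 32.4, 36.1 and 37.1 CPM (0.47, SE 0.106, adjusted p = 0.00957). It was the riser in which library 3 did not lag behind library 2. The gene rps27l, a p53 target in human cells, had 12.4, 11.7 and 12.6 CPM and then 19.8, 13.1 and 21.5 CPM (0.57, adjusted p = 0.0233). The gene rps26l had 252, 242 and 221 CPM and then 328, 269 and 340 CPM (0.39, adjusted p = 0.0205).

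**Figure D2:**
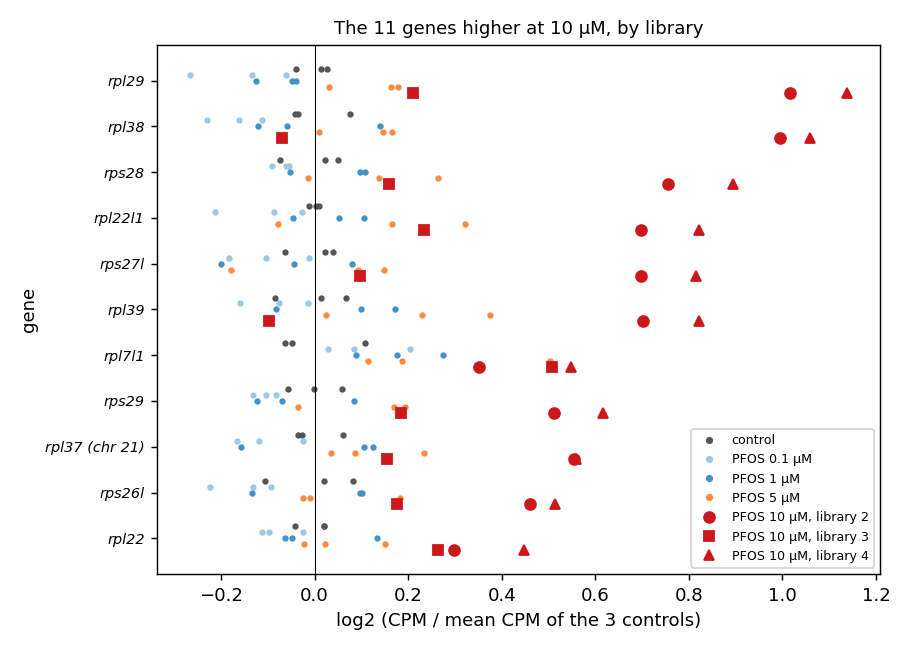
Level of each of the 11 genes that rose at 10 µM, as log2 of CPM over the mean of the 3 controls (x axis), 1 symbol per library and 1 colour per group. At 10 µM libraries 2 and 4 (circle and triangle) lie far to the right of the controls for most genes, while library 3 (square) has a median log2 ratio of 0.18 against 0.70 and 0.82.

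The size of these rises rested mostly on 2 of the 3 exposed libraries. Over the 11 risers the median log2 ratio to the control mean was 0.70 in library 2, 0.18 in library 3 and 0.82 in library 4. Library 3 was above every control for 9 of the 11. Over all 84 members, library 2 had 44 genes above every control and 16 below, library 4 had 53 above and 10 below, and library 3 had 14 above and 46 below. Of all tested genes, 34.2%, 31.0% and 33.4% were above every control in libraries 2, 3 and 4, and 34.1%, 32.7% and 32.8% were below. Without library 3, 23 members passed, all higher, where 6.62% of all tested genes rose. Without library 2 the count was 5 (2.82% of all tested genes rose) and without library 4 it was 4 (3.97%). Without control 1, 2 or 3 it was 8, 8 or 5, where 4.22%, 5.94% and 3.35% of all tested genes rose.

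Of the 11 risers, rpl29, rps28, rpl22l1 and rpl7l1 passed in each of the 14 alternative fits, which include leaving out each of the 6 libraries. The gene rpl22 lost its call without 10 µM library 4 (adjusted p = 0.0717). Without control 3, or without 10 µM library 2 or 4, the calls of rps29 (adjusted p 0.0525 to 0.0607), rpl37 on chromosome 21 (0.0654 to 0.0919) and rps26l (0.0924 to 0.0944) were lost. Those of rpl38 (0.0539 to 0.106), rps27l (0.0602 to 0.116) and rpl39 (0.100 to 0.219) were lost without any 1 of the controls or of 10 µM libraries 2 and 4. With only the 2 groups fitted, rpl39 also lost its call (edgeR adjusted p = 0.0603).

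Of 66 members with a control mean above 300 CPM, 0 passed in edgeR at 10 µM, and their log2 fold changes ran from -0.26 to 0.39, with 35 above 0. The highest control mean among the 11 risers was 294 CPM, just under this bound, so the 0 follows from where the bound lies. The count also depended on the fit. DESeq2 called 2 of them, rps12 and rps25, where 7.72% of all tested genes rose. Without 10 µM library 3 edgeR called 8, namely rpl32, rpl35, rpl36a, rplp1, rplp2l, rps12, rps20 and rps25, all higher, where 6.62% rose. With library totals 7 passed, all higher (9.75% of all tested genes rose), and with the 2 groups fitted alone 1 did, rpl35a, also higher (10.7%). With the length trend removed 7 passed, all lower, where 6.37% of all tested genes fell. The 11 risers had a median control level of 207 CPM against 686 CPM for the other 73. Among genes often used as references, rplp0, the base of the stalk that binds elongation factors, had 2435 ± 183 CPM in controls and 2337 ± 124 CPM at 10 µM (SD, n = 3 per group, log2 fold change -0.06, adjusted p = 0.738). The gene rps18 had 574 ± 15.9 and 577 ± 109 CPM (log2 fold change 0.01), so its mean was unmoved while the exposed libraries were more spread. The values were -0.03 for rpl8 and -0.00 for rpl13a.

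The stalk proteins that sit on Rplp0 gave 0.30 for rplp1 (adjusted p = 0.138), 0.19 for rplp2 and 0.30 for rplp2l, and none of the 3 passed with all libraries and TMM scaling (edgeR's trimmed mean of M values, used for every edgeR value unless another scaling is named). With library totals rplp2l passed. Without 10 µM library 3 all 3 passed, at 0.47 (adjusted p = 0.00909), 0.41 (0.0368) and 0.42 (0.0215). With the length trend removed they read 0.14, -0.14 and -0.01, so those of rplp2 and rplp2l turned. Genes of the Mdm2-binding proteins gave -0.03 for rpl5a, -0.08 for rpl5b and 0.05 for rpl11, none passing. Of others with roles known from human disease or signalling, rps19 gave -0.03, rpl10 -0.03, rps10 -0.12 and rps6, the S6 kinase substrate, -0.02.

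The lowest values belonged to abundant genes. The gene rpl31 had 810, 646 and 602 CPM in controls and 581, 570 and 570 CPM at 10 µM, so that the groups did not overlap but control 1 stood well above the others (log2 fold change -0.26, adjusted p = 0.152). The gene rps4x had 1874 ± 95.5 and 1603 ± 100.2 CPM (SD, n = 3 per group, -0.22, adjusted p = 0.116). Below 0 were also rpl4 at -0.17 (adjusted p = 0.263) and rpsa, the laminin-receptor protein of the small subunit, at -0.16 (adjusted p = 0.304). As in each comparison with control, these values share the 3 control libraries.

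Within the family the change at 10 µM tended to be lower with higher level and greater length. Length here is the one the authors' RPKM values were divided by, recovered from those values, and it ran from 83.1 to 3239 bases (median 441). For rpl39, the shortest, its coefficient of variation between libraries was 10.5%. It is a divisor and need not be the full length of a gene or mRNA. Across the 84 members the Spearman correlation of the log2 fold change was -0.51 with length and -0.73 with the mean level over all 15 libraries. Over all tested genes with a length (n = 20581) these were -0.15 and -0.03. Genes of 1 table share libraries, scaling and base composition, so these are descriptions.

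**Figure D3:**
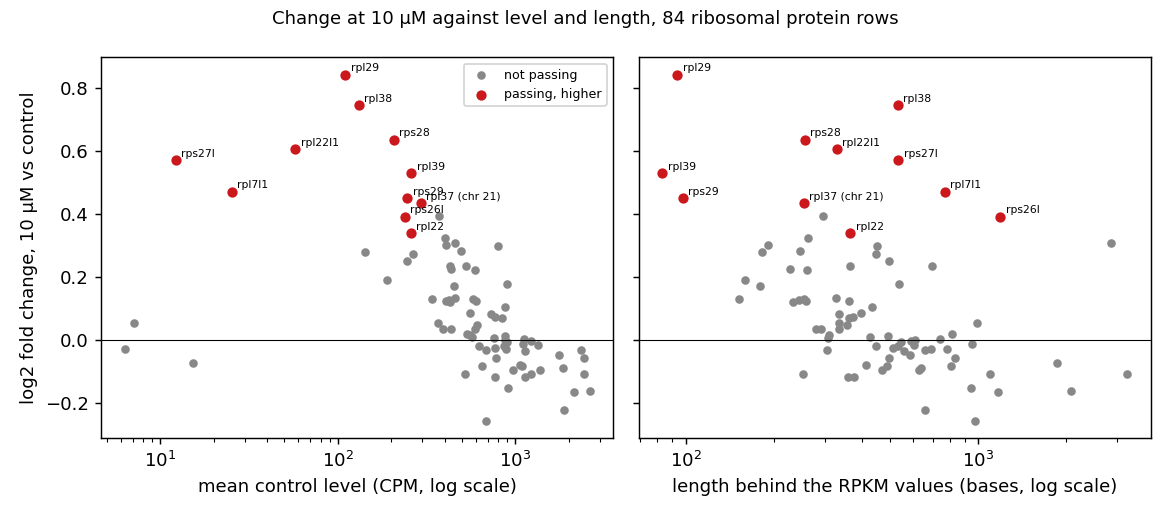
Log2 fold change at 10 µM (y axis) of the 84 members against mean control level (left, CPM) and length (right, bases), both on log axes. The 11 that passed (red, named) have control means up to 294 CPM, and values tend to fall from left to right in both panels, with exceptions. At low levels rpl37 on chromosome 2, rps8b and rps19bp1 lie at -0.03, 0.05 and -0.07, beside rps27l at 0.57 and rpl7l1 at 0.47. Of the 28 longest 7 are above 0, among them rpl35a (2859 bases) at 0.31 and rps26l (1191 bases) at 0.39. Spearman correlations were -0.73 with the mean level over all 15 libraries, which is not the plotted control mean, and -0.51 with length.

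Split into groups of 28 by length, the shortest (83.1 to 334 bases) had a median log2 fold change of 0.18, with 26 of 28 above 0 and 6 passing. The middle group (334 to 545 bases) had 0.06 with 18 above 0 and 3 passing, and the longest (559 to 3239 bases) had -0.03 with 7 above 0 and 2 passing. Tested genes other than the members, mitochondrial ribosomal protein genes included, gave medians of 0.30 (n = 306), 0.13 (n = 744) and -0.00 (n = 15021) in the same length ranges. The share of these that rose was 18.6%, 10.3% and 7.8%.

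Among members the trend was seen in libraries 2 and 4 of 10 µM and not in library 3. The 28 shortest members had a median deviation from the control mean of 0.27, -0.07 and 0.37 on the log2 scale in libraries 2, 3 and 4. For the 28 longest it was -0.04, -0.09 and 0.00. The Spearman correlation of a member's deviation with its length was -0.53, -0.01 and -0.57 in these libraries, and -0.48 in library 3 of 5 µM. Other genes of the same 3 length ranges had medians of 0.11, 0.03 and 0.00 in 10 µM library 3, from shortest to longest, so there the shortest were highest. In library 2 theirs were 0.37, 0.20 and 0.00, and in library 4 they were 0.45, 0.22 and 0.01. What in the making of the libraries or in the larvae moves with length was not tested.

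**Figure D4:**
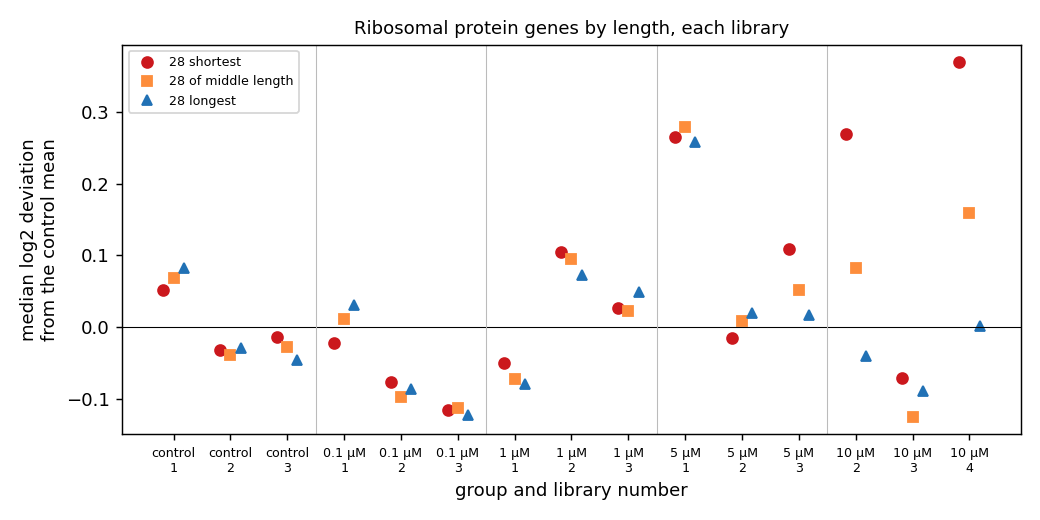
Median log2 deviation from the control mean (y axis) of the 28 shortest, 28 middle and 28 longest ribosomal protein genes in each of the 15 libraries. The 3 symbols lie close together in most libraries but separate in 10 µM libraries 2 and 4, where the shortest reach 0.27 and 0.37, and library 1 of 5 µM is raised at all lengths.

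Removing each library's trend over length changed the split of calls. With it removed, 14 members passed at 10 µM, 7 higher and 7 lower (all tested genes 7.63% and 6.37%), in place of 11 and 0. The 7 higher were all among the 11 above, namely rpl29 (0.51), rpl38 (0.61), rps27l (0.44), rpl7l1 (0.40), rpl22l1 (0.38), rps26l (0.36) and rps28 (0.35) on the log2 scale. The 7 lower were rpl28 (-0.37), rps10 (-0.31), rps4x (-0.31), rps27a (-0.25), rpl19 (-0.24), rpl23a (-0.23) and rps27.2 (-0.21). The calls of rpl22, rpl37 on chromosome 21, rps29 and rpl39 were lost, with adjusted p of 0.184 to 0.278. For 8 members shorter than 215 bases the trend was held at its value there.

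Between 5 and 10 µM, 8 members were higher at 10 µM and 0 lower in edgeR, where 8.06% and 7.34% of all tested genes were. They were rpl29 (0.72, adjusted p = 0.00927), rpl38 (0.64), rps27l (0.54), rps28 (0.50), rpl22l1 (0.46), rps26l (0.34), rps29 (0.34) and rpl22 (0.29), in log2 fold change, with adjusted p up to 0.0385. At unadjusted p below 0.05 there were 10 higher and 11 lower, which is 25% of members against 30.5% of all tested genes. DESeq2 called 9 higher and 5 lower, where it called 7.99% and 7.25% of all tested genes. The median over members was -0.05 against 0.01 over all tested genes, and 18 members had all 10 µM libraries below all 5 µM libraries (15.3% of all tested genes did). In 3 members they were all above (16.8%). Both comparisons use the same 10 µM libraries. With the 2 groups fitted alone 0 passed, where 4.9% of all tested genes were higher and 3.81% lower. With the length trend removed 25 passed, 4 higher and 21 lower, where 8.36% and 7.59% of all tested genes were. Leaving out 10 µM library 2, 3 or 4 gave 0, 12 or 1, and leaving out 5 µM library 1, 2 or 3 gave 10, 4 or 1. In these 6 fits 2.85% to 8.29% of all tested genes were higher and 2.19% to 7.66% lower.

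At 5 µM against control, 0 members passed in edgeR and in DESeq2, as did 0% of all tested genes in edgeR. At an unadjusted p below 0.05 there was 1, rpl7l1. It had 24.3, 27.3 and 24.5 CPM in controls and 36.0, 28.9 and 27.5 CPM at 5 µM, with library 1 highest (log2 fold change 0.28, edgeR adjusted p = 0.999). The next smallest p were those of rpl10a (0.19) and rpl35 (0.20).

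The 5 µM values leaned one way without passing. Of 84 members, 82 had a log2 fold change above 0, with a median of 0.11 against -0.01 over all tested genes, which becomes 0.01 against -0.11 with scaling to the summed ribosomal protein counts. For 10 members all 5 µM libraries were above all controls (3.41% of all tested genes), and for 0 members all were below (3.74%). Library 1 carried most of the shift in the median. The median deviation of the members was 0.26 in library 1 and 0.00 and 0.06 in libraries 2 and 3. The 10 members without overlap do not rest on library 1 alone, since every 5 µM library must lie above every control. Without library 1 the median was 0.03.

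At 1 µM, 0 members passed in edgeR and in DESeq2 (all tested genes 0% in edgeR), and 1 had an unadjusted p below 0.05. That gene, rpl37 on chromosome 2, had 5.71, 5.48 and 7.74 CPM in controls and 4.31, 4.96 and 4.62 CPM at 1 µM, with every exposed library lower (log2 fold change -0.45, edgeR adjusted p = 1.000). Next in order of p were rpl7l1 (0.18) and rps8b (0.20), and the median over members was 0.02. Groups did not overlap for 0 members that were higher (3.27% of all tested genes) and for 1 that was lower (3.46%).

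At 0.1 µM, 0 members passed in either tool (all tested genes 0% in edgeR), and 0 had an unadjusted p below 0.05. Here 80 of 84 were below 0, with a median of -0.07 against -0.00 over all tested genes, and -0.01 against 0.06 with scaling to the summed ribosomal protein counts. For 9 members every exposed library was below every control (2.85% of all tested genes), and for 0 members every one was above (2.63%). The smallest p was that of rpl26, which had 774, 734 and 673 CPM in controls and 657, 653 and 633 CPM at 0.1 µM (log2 fold change -0.17, edgeR adjusted p = 1.000). The next were rpl37 on chromosome 2 (-0.29) and rpl36a. The median deviation of the members was 0.01, -0.09 and -0.12 in libraries 1, 2 and 3.

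The test for a change at any dose called 9 members (7.9% of all tested genes), led by rpl29 (adjusted p = 0.00434), rpl22l1 (0.0118) and rps29 (0.0150). The others were rps28, rpl22, rps26l, rpl38, rpl37 on chromosome 21 and rps27l. Without 10 µM library 2, or without library 4, 0 passed (0.859% and 1.77% of all tested genes), and with the length trend removed 4 did (7.77%).

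Paralogues differed far more in level than in response. Per kilobase in controls, rps8a was 230.0-fold above rps8b, rpl37 on chromosome 21 was 127-fold above its namesake on chromosome 2, rpl7 63.4-fold above rpl7l1 and rps27.1 47.8-fold above rps27l. Smaller gaps were seen for rpl22 over rpl22l1 (4.01-fold), rps26 over rps26l (3.89-fold), rplp2l over rplp2 (1.80-fold) and rpl5b over rpl5a (1.20-fold). In CPM, not divided by length, the order of rps26 and rps26l was reversed, with control means of 142 and 238. At 10 µM the log2 fold change was -0.00 for rpl7 beside 0.47 for rpl7l1. It was 0.05 for rps27.1 and 0.03 for rps27.2 beside 0.57 for rps27l. In these sets the scarce paralogue passed and the abundant gene did not. The reverse held for rpl37, which passed on chromosome 21 (0.43) but not on chromosome 2 (-0.03), where it is scarce. Both rpl22 and rpl22l1 passed, and neither rps8a (0.18) nor rps8b (0.05) did. The differences between paralogues were not tested. Near-identical copies share reads, and no source used here says how the counting divided them.

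Transcript counts showed changes that gene totals did not. Of 248 member transcripts in the table, 190 were tested, and 65 members had more than 1. At 10 µM, 27 transcripts of 24 members passed in edgeR, 16 higher and 11 lower, where 3.11% and 3.13% of all 32275 tested transcripts did (6.25% in either direction). The count was 7, 13 and 6 without control 1, 2 or 3, where 1.86%, 3.88% and 1.47% of all tested transcripts passed. It was 5, 50 and 9 without 10 µM library 2, 3 or 4 (0.941%, 5.7% and 2.08%). These counts are estimates of how reads divide between overlapping transcripts, and the uncertainty of that division is not in the test.

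The clearest was rpl28-203, a coding transcript of rpl28, a large-subunit gene. It was at 0 in all 12 libraries of the other groups and at 89.2, 47.4 and 97.3 CPM in 10 µM libraries 2, 3 and 4 (adjusted p = 0.00448). Set against a floor of 3 counts over the control group, that is at least 1124-fold higher, taking the estimated division of reads as given. Its sister rpl28-201, named after its values were seen, went from 558, 510 and 489 CPM to 370, 461 and 384 CPM (log2 fold change -0.36, adjusted p = 0.0397), with no overlap between the groups. The gene as a whole did not pass (524 ± 35.9 and 486 ± 27.0 CPM, SD, n = 3 per group, -0.11, adjusted p = 0.416).

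**Figure D5:**
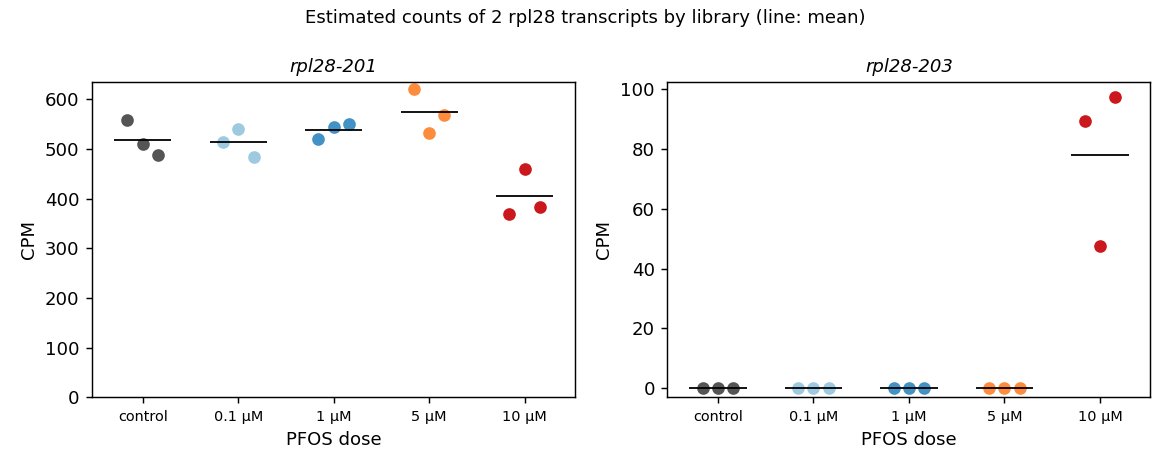
Level of rpl28-201 (left) and rpl28-203 (right) in CPM (y axis) by group, 1 point per library, with a line at the mean. At 10 µM rpl28-201 is lower, at 370 to 461 CPM, and rpl28-203, at 0 in the 12 other libraries, reads 47.4 to 97.3 CPM.

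Among the other transcripts of smallest p, rps19-203 fell from 2.21, 2.41 and 2.34 CPM to 0.242, 0.469 and 0.611 CPM (log2 fold change -2.37, adjusted p = 0.00285). The coding transcript rpl17-206 fell from 3.42, 4.02 and 4.02 CPM to 1.21, 1.09 and 0.688 CPM (-1.93, adjusted p = 0.00326). For rps24-206 the values were 27.3, 23.2 and 28.4 CPM and then 11.8, 16.0 and 12.8 CPM (-0.96, adjusted p = 0.00712). In all 3 every exposed library was below every control, library 3 included. The coding transcript rpl29-202 rose from 34.0, 27.11 and 35.2 CPM to 48.2, 39.7 and 53.3 CPM (0.55, adjusted p = 0.0156).

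Ribosomal protein genes that the name rule misses were read beside the members, and 1 of 3 passed at 10 µM. The gene faua (0.04) did not. The gene faub, at 7.44 ± 0.577 CPM in controls and 10.5 ± 0.997 CPM at 10 µM (SD, n = 3 per group), passed (log2 fold change 0.49, SE 0.129, adjusted p = 0.0215). It lost its call without control 1 or 3 or 10 µM library 2 or 4 (adjusted p 0.0566 to 0.108). Scaling to the summed ribosomal protein count also lost it (edgeR adjusted p = 0.066).

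Other genes of ribosome production and its control were read from the same fit at 10 µM, in which 7.78% of all tested genes rose and 6.65% fell. At an unadjusted p below 0.05, 15.4% of all tested genes were higher and 14.1% lower. Fits without 1 library, used for every list below, called fewer of all tested genes too. Without control 1, 2 or 3, 4.22%, 5.94% and 3.35% rose and 3.64%, 4.81% and 2.92% fell. Without 10 µM library 2, 3 or 4, 2.82%, 6.62% and 3.97% rose and 2.02%, 5.16% and 3.17% fell. Of 74 ribosome assembly genes, 6 rose (8.11%) and 0 fell, with a median log2 fold change of 0.23 against -0.01 over all tested genes, and at an unadjusted p below 0.05 there were 27 higher and 0 lower. They include polr1a, the largest subunit of RNA polymerase I (0.36, adjusted p = 0.0290). Without 1 control the count was 1, 3 and 0 (controls 1, 2 and 3), and without any 1 of the 10 µM libraries it was 0. Of 74 mitochondrial ribosomal protein genes 5 rose (6.76%) and 0 fell, with a median of 0.19 and, at an unadjusted p below 0.05, 21 higher and 0 lower, led by mrpl27 (0.62, adjusted p = 0.0167) and mrpl12 (0.46, adjusted p = 0.0168). That count was 1, 7 and 1 without control 1, 2 or 3, and 0, 4 and 0 without 10 µM library 2, 3 or 4.

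Of 56 translation factor genes, 6 rose (10.7%) and 3 fell (5.36%), with a median of 0.02 and, at an unadjusted p below 0.05, 12 higher and 6 lower. The initiation factor gene eif3jb had 27.0 ± 0.711 CPM in controls and 38.5 ± 2.30 CPM at 10 µM (SD, n = 3 per group, log2 fold change 0.51, adjusted p = 0.000725) and passed in all 14 alternative fits. Calls numbered 2, 7 and 2 without control 1, 2 or 3, and 2, 4 and 4 without 10 µM library 2, 3 or 4. Of 23 TOP mRNA genes outside the name rule, some of them also counted as translation factors, 0 passed in edgeR, 3 had an unadjusted p below 0.05 and 1 passed in DESeq2, and their median was -0.03.

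Among 32 genes that govern ribosome synthesis with growth, 6 rose (18.8%) and 0 fell, with a median of -0.02. At an unadjusted p below 0.05 there were 7 higher and 6 lower. The gene eif4ebp3l, which encodes a binding protein that blocks the cap-binding factor eIF4E, had 31.2 ± 0.924 CPM in controls and 68.1 ± 4.96 CPM at 10 µM (SD, n = 3 per group, log2 fold change 1.12, adjusted p = 5.23e-05). The S6 kinase gene rps6kb1a had 21.8 ± 4.01 and 44.7 ± 3.62 CPM (1.04, adjusted p = 0.0015). The gene sesn2, whose protein senses leucine and restrains mTOR in human cells, had 7.30 ± 1.03 and 12.7 ± 0.273 CPM (0.79, adjusted p = 0.00539). These 3 passed in all 14 alternative fits. The mTOR inhibitor gene ddit4 rose by 0.69 (adjusted p = 0.0133) but lost its call without control 3 (adjusted p = 0.0676) or 10 µM library 2 (0.0760). The list count was 3 without control 3, 4 without 10 µM library 2 and 5 without each other library left out.

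Of 15 p53 and nucleolar stress genes, 4 rose (26.7%) and 0 fell, with a median of 0.19 and, at an unadjusted p below 0.05, 5 higher and 0 lower. They include pmaip1, a pro-apoptotic p53 target, at 4.90 ± 1.21 and 10.6 ± 3.13 CPM (SD, n = 3 per group, log2 fold change 1.11, adjusted p = 0.00498), and gadd45aa, a growth-arrest gene, at 13.1 ± 2.47 and 25.8 ± 5.16 CPM (0.98, adjusted p = 0.00542). Both passed in all 14 alternative fits. The list count was 2 without 10 µM library 2 and 3 without each other library left out. In these 6 lists 0 genes passed at 5, 1 or 0.1 µM in edgeR, and at an unadjusted p below 0.05 there were 6, 5 and 4. Of all tested genes 3.9%, 1.96% and 1.13% had an unadjusted p below 0.05 at these doses. DESeq2 was not read for these lists at those doses.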

How the data were processed

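RNA-seq was made from 15 whole-body zebrafish libraries, 3 for each of 5 groups. Per the file headers, the authors deposited read counts per gene and per transcript and RPKM values. The deposited gene values are whole numbers that differ by rounding from summed transcript values, so they were taken as the authors' estimated counts and used unchanged. The deposited RPKM values of 12 libraries served solely to work out the length behind them. No source used here names the aligner, counting tool, genome build or use of strand. Not used were 18 other per-sample columns for genes and 30 for transcripts. The 10 µM columns are numbered 2, 3 and 4 while the titles carry 1, 2 and 3, so they were assigned to their group only and never paired. Titles of the other 4 groups share the numbers 1, 2 and 3. Over all tested genes, deviations from group means of same-numbered libraries correlated at 0.380 to 0.452 between control and 0.1 µM. The values were 0.190 to 0.336 between control and 1 µM and -0.137 to 0.346 between control and 5 µM. So over all tested genes the numbers pair the first 2 of these comparisons, by the data alone. Over the members alone, numbers 1, 2 and 3 gave 0.451, 0.375 and 0.578 at 0.1 µM. At 1 µM they gave 0.183, -0.00325 and -0.289, so the members showed no such pairing there.

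Counts were TMM-scaled and fitted with edgeR 4.0.16 (filterByExpr, glmQLFit, glmQLFTest) in R 4.3.3. A single model of 5 group means took all 15 libraries. Tests were two-sided, p was adjusted by Benjamini-Hochberg over all 21477 tested genes (32275 transcripts), and the threshold was 0.05. Adjusted p-values are edgeR's unless DESeq2 1.42.0 is named, and SE is that of the log2 fold change. Libraries of a group varied by 13.0% for a typical gene (common dispersion 0.0168). Shares and ratios were compared by exact permutation tests. The fit was tested on simulated data.

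Alternatives were DESeq2, its size factors, library totals, scaling to summed ribosomal protein counts, no filter or 5 CPM in 3 libraries, each library's trend over length removed, only the 2 groups compared, a replicate block and leaving out each library. Members, gene lists, tests and the naming rule were chosen with earlier results of these data known. Named members were the 10 passing of smallest p in each direction per comparison (or the 3 of smallest p), the 5 highest and 5 lowest at 10 µM, fixed reference genes and paralogues. Also named were the transcripts of smallest p and up to 4 genes per list, by p. Some items this rule picks are not reported here. The genes and transcripts named outside this rule, such as rpl39, were chosen after their values were seen. Sequences were not used here.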

Additional observations from a re-analysis of the deposited data

How the results depend on the processing

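The direction of the median at 10 µM, given with each scaling in the report, turned with the length trend removed, and the cause was not tested. With library totals in place of TMM, which moves the median of all genes by about 0.05 (log2 of 0.04 in place of -0.01), calls at 10 µM were 19 for members, 18 for ribosome assembly, 9 for mitochondrial ribosomal proteins and 14 for members at any dose. In that fit 9.75% of all tested genes rose and 4.02% fell at 10 µM, and 8.76% passed at any dose. Scaled to the summed ribosomal protein count, calls at 10 µM were 1 for assembly, 2 for translation factors and 3 for mitochondrial ribosomal proteins. There 4.67% of all tested genes rose and 2.8% fell. With the length trend removed calls were 25 between 10 and 5 µM, 4 at any dose, 1 for TOP mRNAs and 2 for mitochondrial ribosomal proteins. Of all tested genes 8.36% were higher and 7.59% lower between 10 and 5 µM, and 7.77% passed at any dose. Against control at 10 µM, 7.63% rose and 6.37% fell. With only the 2 groups compared calls were 22 for assembly, 15 for translation factors, 10 for growth control, 2 for TOP mRNAs and 0 for members between 10 and 5 µM. Of all tested genes 10.7% rose and 8.7% fell at 10 µM against control. Between 10 and 5 µM, 4.9% were higher and 3.81% lower. DESeq2 gave 14 between 10 and 5 µM (7.99% of all tested genes higher and 7.25% lower), 17 at any dose (12.1%) and 1 for TOP mRNAs. With no filter 5 translation factors passed, where 5.49% of all tested genes rose and 4.83% fell. With the 5 CPM filter 1 TOP mRNA gene did, where 10% rose and 8.79% fell. Leaving out single libraries gave 4 to 23 members at 10 µM, 0 to 12 between 10 and 5 µM, 0 to 13 at any dose and 0 at each lower dose. In those fits 2.82% to 6.62% of all tested genes rose and 2.02% to 5.16% fell at 10 µM, and 0.859% to 9.26% passed at any dose. Leaving out single libraries also gave 5 to 50 transcripts (0.941% to 5.7% of all tested transcripts), 0 to 3 assembly genes, 2 to 7 translation factors, 3 to 5 growth control genes, 2 to 3 p53 genes, 0 to 7 mitochondrial ribosomal proteins and 0 TOP mRNA genes. Differences in share, in points, ran from 0.101 to 0.543 at 10 µM, for 5 µM from 0.176 to 0.561, for 1 µM from -0.0422 to 0.208 and for 0.1 µM from -0.375 to -0.0783. The 1 µM difference was below 0 without control 2 (-0.0398) or 1 µM library 2 (-0.0422) or 3 (-0.0149). Differences in the subunit ratio ran from 0.00387 to 0.0174 at 10 µM, for 5 µM from -0.00821 to 0.00670, for 1 µM from -0.0221 to -0.00649 and for 0.1 µM from -0.0211 to -0.0139. The 5 µM ratio difference of 0.000444 turned below 0 without control 1 (-0.00307), without 5 µM library 2 (-0.00821) or without the like-named paralogues and the binding protein (-0.000106). With a replicate block over the 12 libraries of the control, 0.1, 1 and 5 µM groups, 0 members passed at 5, 1 and 0.1 µM, so at 1 and 0.1 µM the pairing changed no call. Of the 12 libraries 10 correlated best, on average, with the libraries of their own number. The exceptions were 5 µM libraries 2 and 3, at -0.137 and -0.00167 with the control of their own number. With controls 3 and 2 they correlated at 0.277 and 0.222, so at 5 µM the block cannot say whether pairing changes a call. The block was not run for the test over any dose, since the 10 µM columns carry no number that matches the titles. Depth limits the scarce genes, since the lowest control mean is 6.31 CPM.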
